A study of Mus musculus with 12 samples.

Results

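The comparison asked which genes changed differently between day 0 and day 8 in the knockout line (genotype label WT+1343KO-a14; here the 1343KO line) than in wild type (WT) mouse embryonic stem (ES) cells. It rests on 8 of the 12 libraries of the series, 2 for each line at each of these days, taken by their genotype and time labels. The quantity is the change in the 1343KO line (day 8 minus day 0) minus the change in WT, on the log2(FPKM + 1) scale, and is called the interaction. It is positive where a gene rose more, or fell less, in the 1343KO line. FPKM is the number of sequenced fragments per kilobase of transcript, scaled to the depth of the library, so a level per length. The log2(FPKM + 1) scale understates the change of genes at low levels.

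The day 0 cells of both lines were ES cells grown on gelatin in serum with leukaemia inhibitory factor (LIF). The day 8 samples of both lines were embryoid bodies, which are floating aggregates kept in serum without LIF in low-adherence plates. The knockout is represented by a single line, a14, and its labels do not state whether a14 is 1 clone. No label gives the gene behind the line's number or the meaning of the WT+ that opens its name. The study knocked out long noncoding RNAs, and its title ties the small nucleolar RNA SNORA73 to the exit from pluripotency. Nothing says that the 2 replicates of a group were separate cultures, so p-values reflect how far 2 libraries of a group lay apart, which may be no more than technical.

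ES cells stay undifferentiated through a network of transcription factors around Oct4 (Pou5f1), Sox2 and Nanog, which LIF helps to keep on. Without LIF the naive genes are normally shut off first, genes of the formative epiblast such as Fgf5 and Otx2 come on for a time, and the aggregates then form cells of endoderm, mesoderm, blood and vessels. A line by time interaction separates genes for which this course differed between the lines from genes that differed between them throughout.

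Library depth, estimated from the steps between the lowest FPKM values, was between 4883000 and 8077000 fragments over the 12 libraries, and 12909 to 14069 genes reached 1 FPKM. Snhg3, the noncoding host gene of the SNORA73 copies, was listed in the 1343KO line at 0 or a vanishing value at day 8, and at 1.57 and 0 FPKM at day 0. WT had 13.7 and 30.2 FPKM at day 8 and 61.1 and 47.0 FPKM at day 0. It was lower in the 1343KO line at both days (-4.42 at day 8 and -5.09 at day 0), and its interaction did not pass (0.67 ± 0.69 (SE), limma adjusted p = 0.511). As the 1343KO line had little or no level left to fall, this cannot show that the lines changed alike. Core pluripotency genes marked both lines as ES cells at day 0. Their 11 tested members summed to 2767 and 2634 FPKM in 1343KO and 2615 and 2622 FPKM in WT.

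The lines parted widely over the 8 days. Of 16289 genes tested, 4605 (28.3%) passed the interaction test (limma, Benjamini-Hochberg adjusted p under 0.05). The change was the more positive in the 1343KO line for 2534 of them (15.6%) and the more negative for 2071 (12.7%), and 2625 of the 4605 differed by at least 2-fold. An unadjusted p under 0.05 was found for 6399 genes. Within the 1343KO line 2441 genes rose (15.0%) and 1387 fell (8.51%), against 4364 that rose (26.8%) and 3988 that fell (24.5%) in WT. Genes that rose in WT had a median log2 change of 0.39 in the 1343KO line and 1.09 in WT. Those that fell in WT had a median of -0.24 in the 1343KO line and -0.93 in WT. Over all genes tested the median change was 0.069 in the 1343KO line and 0.0034 in WT, and the median interaction was 0.064.

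The genes that passed fell into 4 patterns by which line's own change passed. A set of 223 genes (1.37%) moved in opposite directions. The WT-only pattern, in which the interaction and the WT change passed and the 1343KO change did not, held 2696 genes (16.6%), of which 1294 rose and 1402 fell in WT. The 1343KO-only pattern held 397 genes (2.44%), of which 311 rose and 86 fell in the 1343KO line. In 1177 genes (7.23%) both lines moved in 1 direction by different amounts, and the WT change was the larger in 587 that rose and 520 that fell, while the 1343KO change was the larger in 54 that rose and 16 that fell. For the other 112 neither line's own change passed. The shares of all genes given here and above are the background for the counts of list members below. A change that misses the threshold may still be present. The 95% interval of the quiet line lay within 1 log2 unit of 0 for 1083 of the rising and 1247 of the falling WT-only genes, and for 270 of the rising and 70 of the falling 1343KO-only genes.

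**Figure D1:**
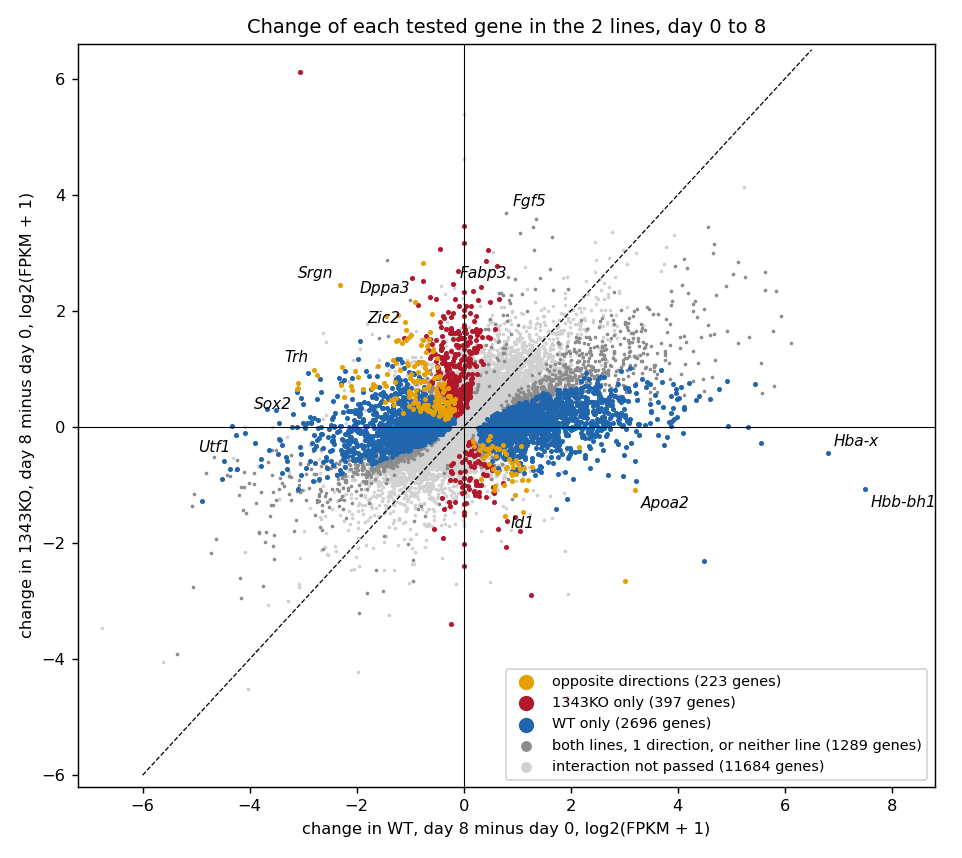
Each point is 1 of the 16289 genes tested, with its change in WT on the horizontal axis and its change in the 1343KO line on the vertical axis, both day 8 minus day 0 on the log2(FPKM + 1) scale; the dashed line marks equal change and colours mark the patterns. The 2696 WT-only genes lie along the horizontal axis, the 397 1343KO-only genes along the vertical axis, and the 223 opposite genes in the upper left (172 genes) and lower right (51 genes).

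Where the lines came to differ was mostly at day 8. Of the 4605 genes, 3997 differed between the lines at day 8 and not at day 0 by the same test, 207 differed at both days, 141 at day 0 and not at day 8, and 260 at neither. Among the 223 opposite genes these counts were 193, 21, 9 and 0. The 9 that differed at day 0 and no longer passed at day 8 included Perp, Napg, Agpat5, Lama1 and Foxq1.

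The direction of these counts depended on scaling. Dividing each library by the sum of its values (TPM scaling) moved the median interaction of all genes by -0.14, and median-of-ratios scaling by -0.06, so changes are relative to that shift. The share of passing genes with the more positive change in the 1343KO line was 55.0% as deposited, 47.9% with median-of-ratios and 40.2% with TPM scaling. Of the genes that changed in the 1343KO line 63.8% rose as deposited, 56.1% with median-of-ratios and 52.6% with TPM scaling. The WT-only genes split into 1294 up and 1402 down as deposited, 1508 and 1130 with median-of-ratios, and 1754 and 913 with TPM scaling. The 1343KO-only genes split into 311 up and 86 down as deposited, 254 and 122 with median-of-ratios, and 212 and 139 with TPM scaling.

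The promoters of 5 genes are shown as examples of the opposite and WT-only patterns and of 1343KO-only genes that rose. Each is given from 250 bases before to 50 bases after the start of the gene in RefSeq (GRCm38.p6), 5′ to 3′ on the gene's strand, with capitals for the dinucleotide CG. Apoa2 (chr1:171224804-171225103, plus strand) fell in the 1343KO line and rose in WT, and Trh (chr6:92244601-92244900, minus strand) did the reverse. Hba-x (chr11:32276350-32276649, plus strand) rose in WT alone by the calls, Utf1 (chr7:139943606-139943905, plus strand) fell in WT alone, and Fabp3 (chr4:130308488-130308787, plus strand) rose in the 1343KO line alone.
Apoa2: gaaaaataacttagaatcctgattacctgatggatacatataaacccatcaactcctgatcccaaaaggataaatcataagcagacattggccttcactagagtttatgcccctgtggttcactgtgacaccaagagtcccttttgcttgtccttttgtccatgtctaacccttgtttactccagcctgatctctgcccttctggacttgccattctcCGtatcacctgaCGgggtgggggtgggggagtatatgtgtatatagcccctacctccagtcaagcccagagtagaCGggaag
Trh: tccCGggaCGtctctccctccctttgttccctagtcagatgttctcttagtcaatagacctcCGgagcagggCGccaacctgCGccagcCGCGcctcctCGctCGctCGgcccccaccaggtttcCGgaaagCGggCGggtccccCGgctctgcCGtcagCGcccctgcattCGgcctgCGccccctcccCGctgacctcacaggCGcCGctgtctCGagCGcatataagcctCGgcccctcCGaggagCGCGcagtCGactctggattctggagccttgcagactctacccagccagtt
Hba-x: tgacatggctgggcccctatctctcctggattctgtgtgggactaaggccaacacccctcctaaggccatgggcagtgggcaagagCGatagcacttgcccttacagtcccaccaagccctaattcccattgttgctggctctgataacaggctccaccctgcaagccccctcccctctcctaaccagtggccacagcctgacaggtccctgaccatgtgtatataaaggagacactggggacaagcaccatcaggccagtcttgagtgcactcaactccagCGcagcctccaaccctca
Utf1: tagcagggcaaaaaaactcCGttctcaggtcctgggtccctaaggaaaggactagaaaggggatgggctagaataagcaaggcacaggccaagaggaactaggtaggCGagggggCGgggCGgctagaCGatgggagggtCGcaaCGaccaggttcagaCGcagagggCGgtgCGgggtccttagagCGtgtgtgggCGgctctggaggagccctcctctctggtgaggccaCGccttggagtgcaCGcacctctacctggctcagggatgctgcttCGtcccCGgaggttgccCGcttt
Fabp3: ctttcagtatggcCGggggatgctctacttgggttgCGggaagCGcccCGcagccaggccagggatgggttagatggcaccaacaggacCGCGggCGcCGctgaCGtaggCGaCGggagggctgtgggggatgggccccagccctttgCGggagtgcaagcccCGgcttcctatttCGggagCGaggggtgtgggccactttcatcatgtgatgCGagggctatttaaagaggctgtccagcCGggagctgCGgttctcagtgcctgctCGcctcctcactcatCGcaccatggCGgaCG

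The Apoa2 and Hba-x windows hold 3 and 2 CG dinucleotides, while those of Trh, Utf1 and Fabp3 hold 28, 17 and 22. Promoters were found for 11087 of 16278 gene symbols, with a median of 20 CG and 11% of windows with at most 5. A window with at most 5 CG was found for 9 of 13 promoters of yolk sac plasma protein genes (69.2%) and all 6 of globin genes, some of which are near-identical copies. Among WT-only genes that rose the share was 15.9%, and among those that fell 9.08%. It was 14.6% of 1343KO-only genes that rose, 10.3% of opposite genes that rose in WT and 8.94% of opposite genes that fell in WT. The motif GATAA, the core that GATA factors bind, searched on both strands, was in the Apoa2 and Hba-x windows and in none of the other 3. It was in 16.2% of all windows, 53.8% of those of plasma protein genes and all 6 of globin genes. By pattern the share lay near that of all windows, at 18.5% of WT-only genes that rose and 15.8% of those that fell, 17.2% of 1343KO-only genes that rose and 18.0% of those that fell, and 17.2% and 13.8% of opposite genes that rose and fell in WT. The motif TATAAA was also in the Apoa2 and Hba-x windows, against 7.31% of all windows. By pattern it was in 6.86% of WT-only genes that rose and 7.65% of those that fell. The shares were 9.87% of 1343KO-only genes that rose and 16% of those that fell (8 of 50 windows). They were 13.8% (4 of 29 windows) and 4.07% of opposite genes that rose and fell in WT. A match describes the letters of a window and says nothing of binding.

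In the opposite pattern, 51 genes fell in the 1343KO line and rose in WT, with median changes of -0.64 and 0.75. The other 172 rose in the 1343KO line and fell in WT, with median changes of 0.59 and -0.71. In all 223 the changes of the 1343KO libraries lay on 1 side of those of the WT libraries; the calls themselves largely fix this. In 20 genes both lines moved by at least 2-fold. Scaled by median of ratios the split was 68 and 123 genes, and 174 of the 223 kept the pattern. Under TPM scaling it was 94 and 92, and 143 kept it.

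Apoa2, which encodes an apolipoprotein of high-density lipoprotein made by yolk sac endoderm and liver (chromosome 1, 171225054 to 171226379 of GRCm38), stood at 11.5 and 8.35 FPKM at day 8 and 28.3 and 17.0 FPKM at day 0 in the 1343KO line, against 185 and 184 FPKM at day 8 and 17.8 and 20.9 FPKM at day 0 in WT. The day 0 libraries of the lines overlapped, and at day 8 both 1343KO libraries were far below both WT libraries. Its change was -1.09 in the 1343KO line and 3.19 in WT, with an interaction of -4.28 ± 0.30 (SE; limma adjusted p = 2.15e-05). At day 16 it was at 9.92 and 9.23 FPKM in the 1343KO line and 713 and 822 FPKM in WT.

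Id1, an inhibitor of basic helix-loop-helix factors and a target of bone morphogenetic protein (BMP) signals, was at 26.8 and 23.7 FPKM at day 8 and 75.5 and 74.9 FPKM at day 0 in the 1343KO line, against 111 and 103 FPKM at day 8 and 64.0 and 61.1 FPKM at day 0 in WT. It fell by 1.54 log2 units in the 1343KO line, and its interaction was -2.30 ± 0.15 (limma adjusted p = 1.8e-05). Zfp36l1, which encodes an RNA-binding protein that speeds the decay of messenger RNAs, had 26.4 and 22.7 FPKM at day 8 and 45.2 and 48.4 FPKM at day 0 in the 1343KO line, against 92.4 and 85.6 FPKM at day 8 and 40.2 and 42.0 FPKM at day 0 in WT. Clmp, a cell adhesion molecule of tight junctions, went the same way at a low level, with 1.69 and 1.73 FPKM at day 8 in the 1343KO line against 7.34 and 8.08 FPKM in WT (interaction -2.23 ± 0.25).

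Rian, a maternally expressed noncoding RNA of the Dlk1-Dio3 imprinted cluster, had 173 and 172 FPKM at day 8 in the 1343KO line against 686 and 651 FPKM in WT, after 237 and 201 FPKM at day 0 in the 1343KO line and 147 and 153 FPKM in WT. The groups did not overlap at day 8. Its fall in the 1343KO line rested on single libraries: the limma adjusted p of that fall was 0.0643, 0.0501 and 0.0592 without 1343KO day 0 replicate 1, day 8 replicate 1 and day 8 replicate 2.

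Srgn, which encodes the core protein of the proteoglycan serglycin (chromosome 10, 62493833 to 62527451), had the largest interaction among the named opposite genes. It stood at 24.3 and 24.0 FPKM at day 8 and 3.64 and 3.59 FPKM at day 0 in the 1343KO line, against 11 and 5.01 FPKM at day 8 and 41.6 and 41.1 FPKM at day 0 in WT. The lines thus changed order, with the 1343KO line higher at day 8 (1.57) and lower at day 0 (-3.20), and the interaction was 4.77 ± 0.42 (limma adjusted p = 6.75e-05). At day 16 the values were 16.1 and 9.60 FPKM in the 1343KO line and 19.2 and 19.2 FPKM in WT.

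Trh, which encodes the precursor of thyrotropin-releasing hormone (chromosome 6, 92242061 to 92244650), stood at 165 and 151 FPKM at day 8 and 79.0 and 81.0 FPKM at day 0 in the 1343KO line, against 15.1 and 17.6 FPKM at day 8 and 121 and 116 FPKM at day 0 in WT. Klf2, a Krüppel-like factor of naive pluripotency, had 101 and 95.8 FPKM at day 8 and 50.6 and 54.0 FPKM at day 0 in the 1343KO line, against 6.59 and 7.61 FPKM at day 8 and 52.7 and 54.0 FPKM at day 0 in WT. In both genes the 1343KO libraries rose (0.97 for Trh and 0.90 for Klf2) and the WT libraries fell (-2.79 and -2.75), with no overlap at day 8. The interactions were 3.76 ± 0.12 for Trh and 3.65 ± 0.16 for Klf2 (limma adjusted p = 5.25e-07 and 2.11e-06). At day 16 Trh was at 291 and 269 FPKM in the 1343KO line and 8.87 and 8.88 FPKM in WT.

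Lefty2, an antagonist of Nodal, Tcl1, a co-activator of the kinase Akt, and Calcoco2, an autophagy receptor, had WT falls of -3.12, -3.10 and -3.10. Lefty2 was at 41.9 and 40.6 FPKM at day 8 and 28.0 and 23.6 FPKM at day 0 in the 1343KO line, against 2.42 and 3.05 FPKM at day 8 and 33.3 and 29.6 FPKM at day 0 in WT. Calcoco2 had 58.0 and 53.8 FPKM at day 8 in the 1343KO line against 1.43 and 1.49 FPKM in WT, and Tcl1 had 34.8 and 30.5 FPKM against 2.62 and 1.38 FPKM. The rises in the 1343KO line were smaller (0.66 for Lefty2, 0.76 for Tcl1 and 0.67 for Calcoco2). They no longer passed in 4 of 17 alternative settings for Lefty2 (adjusted p 0.0556 to 0.12), in 11 for Tcl1 (0.0603 to 0.24) and in 7 for Calcoco2 (0.0521 to 0.117), while the interactions passed in all of them.

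**Figure D2:**
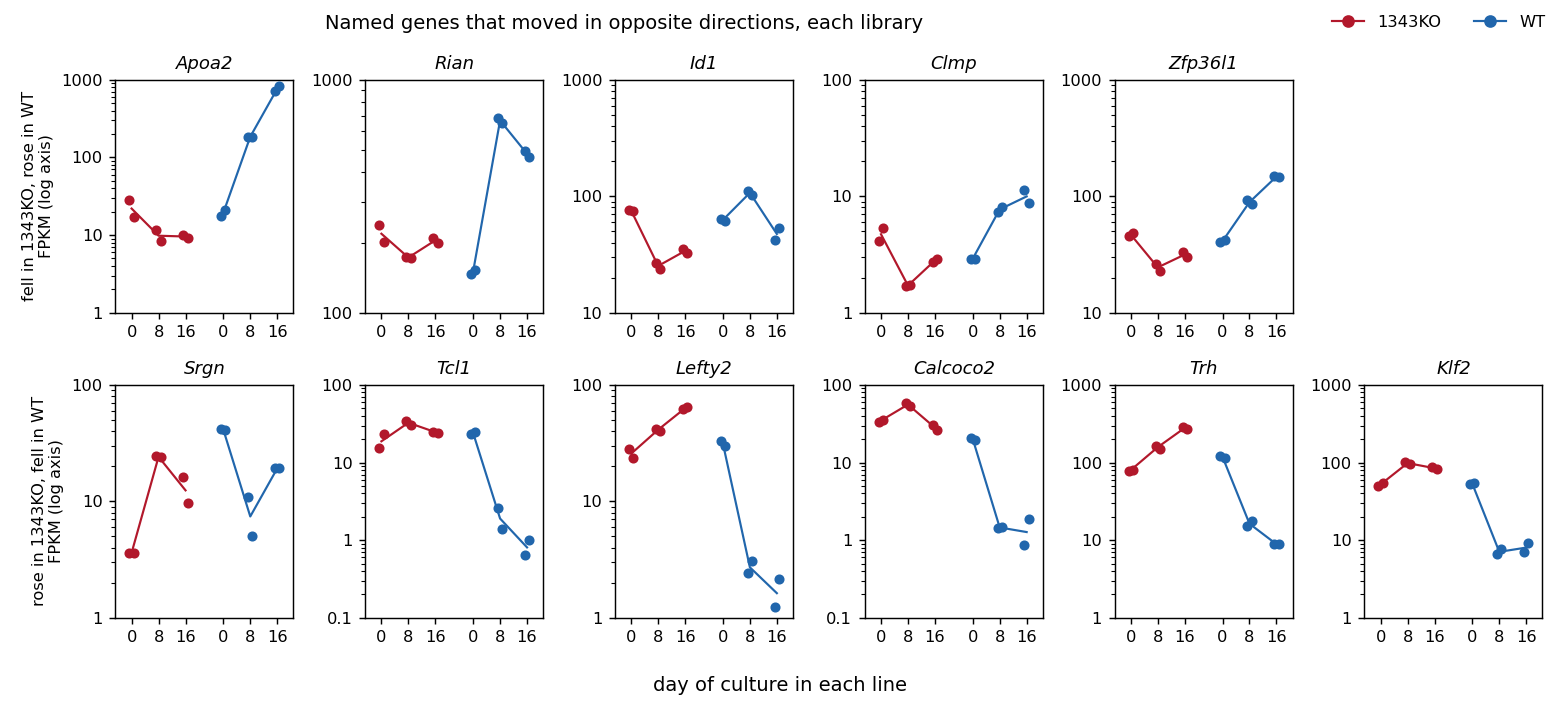
FPKM of each library on log axes at days 0, 8 and 16, for 5 genes that fell in the 1343KO line and rose in WT (top) and 6 that did the reverse (bottom); points are libraries and lines join the means of the log2 values, 1343KO left of WT. Apoa2 reached 185 and 184 FPKM in WT at day 8 against 11.5 and 8.35 FPKM in the 1343KO line, and Klf2 was at 101 and 95.8 FPKM in the 1343KO line against 6.59 and 7.61 FPKM in WT.

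Among genes that rose at least 2-fold in the 1343KO line and fell at least 2-fold in WT were transcription factors and enzymes, picked here after their values were seen except for Zic2, Tfap2c and Foxq1. Zic2, a zinc finger factor of the formative epiblast, had 27.2 and 28.0 FPKM at day 8 and 7.38 and 8.63 FPKM at day 0 in the 1343KO line, against 2.69 and 2.68 FPKM at day 8 and 6.94 and 6.54 FPKM at day 0 in WT. Tfap2c, an AP-2 factor of trophoblast and germ cells, was at 41.3 and 38.2 FPKM at day 8 in the 1343KO line against 3.98 and 3.63 FPKM in WT. The aldehyde dehydrogenase gene Aldh1b1 (interaction 2.90 ± 0.24), the serine protease gene Htra1 (2.36 ± 0.18) and Jakmip1, which encodes a microtubule-binding protein (3.35 ± 0.49), followed. Foxq1, a forkhead factor, was 1 of the genes whose lines no longer differed at day 8 by the test, with 3.81 and 2.81 FPKM at day 8 and 0.630 and 0.422 FPKM at day 0 in the 1343KO line, against 3.31 and 3.13 FPKM at day 8 and 7.85 and 7.87 FPKM at day 0 in WT. Perp, a desmosome gene also induced by p53, was another whose lines no longer differed at day 8, but it moved the other way. It fell in the 1343KO line (-0.71) and rose in WT (0.79), by less than 2-fold in each. Its day 8 levels were 22.0 and 17.9 FPKM in the 1343KO line against 25.0 and 26.9 FPKM in WT.

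Many opposite calls were small shifts of abundant genes. Of 83 ribosomal protein genes tested, 23 rose in the 1343KO line (0.14 to 0.52) and fell in WT (-0.59 to -0.16). That number was 15 under median-of-ratios and 1 under TPM scaling, and 68, 57 and 35 of the 83 passed the interaction under the 3 scalings. Actb, which encodes cytoplasmic actin and was looked at after its value was seen, had 875 and 842 FPKM at day 8 and 999 and 1029 FPKM at day 0 in the 1343KO line, against 985 and 949.6 FPKM at day 8 and 857 and 859 FPKM at day 0 in WT. Its interaction of -0.41 ± 0.06 passed (limma adjusted p = 0.000998), and its WT rise ended without WT day 8 replicate 1 (adjusted p = 0.0508).

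The WT-only pattern held 6 of 7 globin genes and 12 of 17 early blood genes, beside 16.6% of all genes. In bulk RNA, fewer cells of a type and less RNA per cell cannot be told apart. The embryonic globin gene Hbb-bh1 was at 3.25 and 1.22 FPKM at day 8 in the 1343KO line, against 759.6 and 844 FPKM in WT, after 7.17 and 4.08 FPKM at day 0 in the 1343KO line and 3.24 and 3.64 FPKM in WT. The alpha-like embryonic globin gene Hba-x had 1.18 and 0.774 FPKM at day 8 in the 1343KO line against 257 and 290.1 FPKM in WT. Neither gene passed a change in the 1343KO line and both rose in WT, with interactions of -8.57 ± 0.58 for Hbb-bh1 and -7.25 ± 0.50 for Hba-x (limma adjusted p = 1.88e-05 and 1.98e-05). Of the 7 globin genes 6 passed with the lower change in the 1343KO line, and the median change was -0.27 in the 1343KO line and 5.31 in WT. The 7 summed to between 4.298 and 11.53 FPKM in all 1343KO libraries and to 1215 and 1345 FPKM in WT at day 8. Reads of Hba-a1 and Hba-a2 may be split between these near-identical copies.

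The 17 tested genes of early blood included 12 with the lower change in the 1343KO line, all in the WT-only pattern, and 2 with the higher one. Nfe2, a factor of red cell and platelet precursors, had 0.180 and 0 FPKM at day 8 in the 1343KO line against 5.73 and 7.95 FPKM in WT. Runx1 and Myb, factors of definitive blood, were the 2 in the 1343KO-only pattern, and Spi1, Gata2 and Epor did not pass. At day 16 Hbb-bh1 had returned to 4.84 and 7.55 FPKM in WT, beside 7.49 and 17.6 FPKM in the 1343KO line.

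Endothelial genes showed the same split, with 11 of 18 lower, 1 higher and 6 not passing (median interaction -1.69, beside 0.064 over all genes). The receptor gene Tie1 was at 0.231 and 0.230 FPKM at day 8 in the 1343KO line and 8.99 and 10.0 FPKM in WT, and its relative Tek at 2.02 and 1.58 FPKM against 15.2 and 13.7 FPKM. Neither receptor passed a change in the 1343KO line (0.04 and -0.30), and both rose in WT (3.28 and 2.89). Kdr, the main receptor of vascular growth factor, had 1.49 and 1.12 FPKM against 20.2 and 17.9 FPKM; its 1343KO change of 0.58 did not pass, except without 1343KO day 0 replicate 2 (adjusted p = 0.0229).

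The yolk sac plasma protein genes, which visceral endoderm and liver share, gave the largest list median in this direction after the globins. Of 15 tested, 14 had the lower change in the 1343KO line and 1 did not pass, with median changes of 0.27 in the 1343KO line and 3.87 in WT. Their summed level at day 8 was 829.6 and 778.4 FPKM in the 1343KO line, against 5536 and 5774 FPKM in WT, after 363.7 and 360.7 FPKM at day 0 in the 1343KO line and 378.8 and 382.6 FPKM in WT. Afp, fetal albumin-like protein, was at 60.6 and 50.2 FPKM at day 8 in the 1343KO line and 631 and 659 FPKM in WT. Rbp4, the plasma carrier of retinol, and Apob, the core protein of low-density lipoprotein, did rise in the 1343KO line as well. Rbp4 had 26.6 and 28.7 FPKM at day 8 in the 1343KO line against 831 and 833 FPKM in WT, after 10.8 and 8.38 FPKM at day 0 in the 1343KO line and 9.30 and 13.0 FPKM in WT (interaction -4.67 ± 0.22, limma adjusted p = 2.66e-06).

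The transcription factors of endoderm did not follow the plasma proteins. Of 12 tested, 1 was higher, 2 were lower and 9 did not pass, while 28.3% of all genes passed. The list's median change was 0.60 in the 1343KO line and 0.69 in WT. Gata4 had 10.3 and 12.4 FPKM at day 8 and 3.25 and 2.04 FPKM at day 0 in the 1343KO line, against 64.3 and 55.1 FPKM at day 8 and 19.4 and 23.8 FPKM at day 0 in WT. It rose by similar amounts (1.78 in the 1343KO line and 1.43 in WT) while the WT level was the higher at both days, and the interaction of 0.35 ± 0.26 did not pass (limma adjusted p = 0.353). Foxa2 rose in both lines (1.62 and 1.96), and the interactions of Gata6 and Sox17 did not pass either. For these 3 genes WT had the higher level at day 0 by the same test. The log2 differences, 1343KO minus WT, were -1.3 for Foxa2, -2.3 for Gata6 and -2.5 for Sox17. By day 8 they were -1.6, -2.4 and -1.1, and that of Sox17 did not pass. The list summed to 45.46 and 43.03 FPKM at day 8 in the 1343KO line, against 174.3 and 157.9 FPKM in WT. Foxa3 rose in WT alone by the calls, with 1.16 and 0.901 FPKM at day 8 in the 1343KO line against 6.80 and 8.17 FPKM in WT.

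Mesoderm and matrix genes rose mainly in WT. Of 16 mesoderm transcription factors 12 had the lower change in the 1343KO line and 4 did not pass. Hand2, a factor of heart and limb, was at 0.922 and 0.477 FPKM at day 8 in the 1343KO line and 21.2 and 21.6 FPKM in WT, while its relative Hand1 rose in both lines, to 16.9 and 15.6 FPKM in the 1343KO line and 154 and 162 FPKM in WT. Snai2, a repressor that marks the epithelial to mesenchymal switch, had 1.72 and 1.59 FPKM against 42.0 and 42.5 FPKM at day 8. Of 18 fibroblast matrix genes 14 were lower and 4 did not pass, with median changes of 0.37 in the 1343KO line and 2.55 in WT. Lum, a collagen-binding proteoglycan, had 1.21 and 1.73 FPKM at day 8 in the 1343KO line and 24.9 and 27.2 FPKM in WT. Smooth muscle Acta2 rose in both, to 39.7 and 38.4 FPKM in the 1343KO line and 138 and 149.7 FPKM in WT, and the heart troponin gene Tnnt2 likewise (1.45 and 3.68). Of 16 heart sarcomere genes 7 were lower, 1 was higher and 8 did not pass. These did not rise mainly in WT by count: 9 rose and 1 fell in the 1343KO line, against 8 and 0 in WT. Of 15 macrophage genes 4 were lower and 11 did not pass, while 12.7% of all genes were lower and 28.3% passed. Their summed level at day 8 was 16.58 and 13.92 FPKM in the 1343KO line and 33.88 and 36.75 FPKM in WT.

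**Figure D3:**
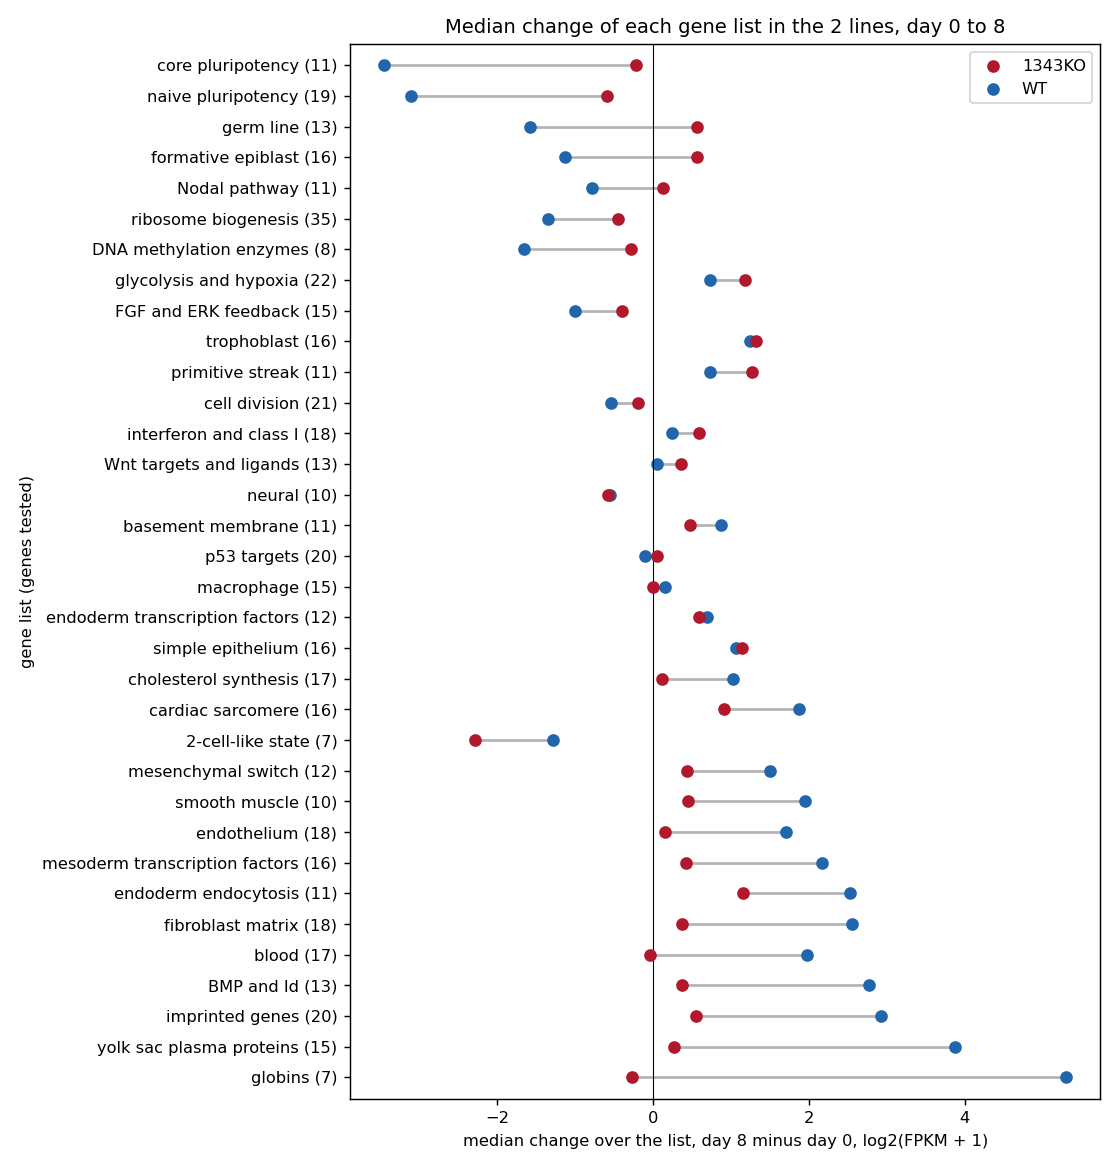
Median change from day 0 to day 8 over the tested members of each of the 34 gene lists, on the log2(FPKM + 1) scale, in the 1343KO line (red) and WT (blue), with the number of genes tested in brackets and lists sorted by their median interaction. The plasma protein list had medians of 0.27 in the 1343KO line and 3.87 in WT, and the core pluripotency list -0.22 in the 1343KO line and -3.45 in WT.

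Core pluripotency genes fell in WT in 10 of 11 cases, and in the 1343KO line in 6. By pattern 5 were WT-only, 4 moved in 1 direction in both lines and 1 was opposite. Of the 11 core genes 9 had the more positive change in the 1343KO line, 1 the more negative and 1 did not pass, with median changes of -0.22 in the 1343KO line and -3.45 in WT. Sox2 was at 188 and 188 FPKM at day 8 and 188 and 187 FPKM at day 0 in the 1343KO line, against 18.5 and 19.5 FPKM at day 8 and 174 and 168 FPKM at day 0 in WT. The 1343KO libraries were level while WT fell by 3.11, and the interaction was 3.11 ± 0.11 (limma adjusted p = 6.95e-07). Utf1, a chromatin-associated factor of ES cells, had 227 and 203 FPKM at day 8 in the 1343KO line against 12.7 and 15.3 FPKM in WT, and Dppa4, a partner of Dppa2, 102 and 98.5 FPKM against 6.65 and 7.39 FPKM. Pou5f1 did fall in the 1343KO line (-0.84), to 469 and 454 FPKM, against 35.6 and 36.2 FPKM in WT (-4.37). Nanog had 176 and 185 FPKM at day 8 in the 1343KO line against 12.9 and 12.3 FPKM in WT; its 1343KO change of -0.20 did not pass as deposited and did with median-of-ratios (adjusted p = 0.0438) and TPM scaling (0.038).

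The naive genes were not all held in the 1343KO line. Of 19 tested, 11 fell and 3 rose in the 1343KO line, against 17 that fell and 0 that rose in WT, and the interaction was positive in 16 and negative in 2. Klf4, a naive Krüppel-like factor, fell to 18.4 and 20.3 FPKM at day 8 in the 1343KO line, with 99.3 and 94.5 FPKM at its day 0, against 6.46 and 4.81 FPKM at day 8 in WT (changes -2.27 and -3.55, interaction 1.28 ± 0.21). Zfp42, also called Rex1, was at 106 and 99.1 FPKM at day 8 in the 1343KO line and 6.08 and 7.77 FPKM in WT. Tbx3 and Stat3, which act below LIF, were the 2 with the negative interaction. Dppa3, a maternal factor that guards methylation marks, had 175 and 159.5 FPKM at day 8 in the 1343KO line against 6.61 and 3.42 FPKM in WT, after 38.2 and 35.4 FPKM at day 0 in the 1343KO line and 11.3 and 8.62 FPKM in WT. Its WT fall of -0.90 ended in 12 of 17 alternatives (adjusted p 0.0554 to 0.293), while its interaction of 3.06 ± 0.47 passed (limma adjusted p = 0.00151).

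Of 16 formative epiblast genes tested, 6 rose, 3 fell and 7 did not pass in the 1343KO line, against 4 that rose, 9 that fell and 3 that did not pass in WT. The change was the more positive in the 1343KO line for 10 and the more negative for 0, and the interaction of 6 did not pass, with median changes of 0.57 in the 1343KO line and -1.13 in WT. Fgf5, a growth factor of the post-implantation epiblast, was at 24.8 and 24.1 FPKM at day 8 and 0.680 and 1.30 FPKM at day 0 in the 1343KO line, against 1.54 and 1.85 FPKM at day 8 and 0.318 and 0.813 FPKM at day 0 in WT. Otx2, a homeobox factor of the same stage, was at 56.7 and 58.2 FPKM at day 8 and 3.26 and 5.73 FPKM at day 0 in the 1343KO line, against 11.3 and 10.2 FPKM at day 8 and 3.75 and 3.88 FPKM at day 0 in WT. Both rose in each line and by more in the 1343KO line, with interactions of 2.89 ± 0.31 and 2.16 ± 0.33. The small WT rise of Fgf5 (0.80) no longer passed once WT replicate 1 of day 0 (adjusted p = 0.0961) or replicate 2 of day 8 (0.0754) was left out. At day 16 Fgf5 was at 36.9 and 34.1 FPKM and Otx2 at 66.6 and 72.6 FPKM in the 1343KO line, against 1.03 and 1.55 FPKM and 3.32 and 5.59 FPKM in WT.

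Primitive streak genes were divided. T, the brachyury factor of nascent mesoderm, had 4.67 and 5.94 FPKM at day 8 in the 1343KO line against 1.00 and 1.35 FPKM in WT, and Eomes, its relative, 6.28 and 4.28 FPKM against 1.91 and 3.20 FPKM. Cer1, a secreted antagonist of Nodal, was at 4.42 and 4.75 FPKM at day 8 in the 1343KO line against 0.526 and 0.105 FPKM in WT. These 3 had positive interactions (1.54 ± 0.28 for T, 1.53 ± 0.32 for Eomes; limma adjusted p = 0.00369, 0.0071 and 0.000862 for T, Eomes and Cer1), and Wnt3, a ligand that starts the streak, had a negative one (-2.00 ± 0.27), with 0.554 and 0.776 FPKM at day 8 in the 1343KO line against 3.60 and 3.20 FPKM in WT. Over the 11 tested, 4 were positive, 2 negative and 5 did not pass. The WT rise of T (0.74) no longer passed without WT day 0 replicate 2 (limma adjusted p = 0.0787) or WT day 8 replicate 2 (0.0785).

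Among 1343KO-only genes that rose, the 6 named for the size of their interaction were Ctsj, Fabp3, Serpinb9e, Pga5, Ap3b2 and Gpat3. Fabp3, a carrier of fatty acids in heart and muscle (chromosome 4, 130308595 to 130315463), stood at 286 and 276 FPKM at day 8 and 48.8 and 50.8 FPKM at day 0 in the 1343KO line, against 83.0 and 92.8 FPKM at day 8 and 97.3 and 104 FPKM at day 0 in WT. The 1343KO libraries were above WT at day 8 (log2 difference 1.67) and below it at day 0 (adjusted p = 0.000336), and the interaction was 2.66 ± 0.12 (limma adjusted p = 2.11e-06). Ctsj, a cathepsin of the mouse placenta from a family of close copies, had 5.19 and 6.88 FPKM at day 8 and 0 and 0.170 FPKM at day 0 in the 1343KO line, against 0.393 and 0.312 FPKM at day 8 and 0.392 and 0.504 FPKM at day 0 in WT. Pga5, a pepsinogen, was at 11.4 and 13.3 FPKM at day 8 in the 1343KO line against 1.63 and 2.34 FPKM in WT, and Ap3b2, a subunit of the neuronal AP-3 adaptor, at 9.22 and 12.2 FPKM against 0.763 and 1.24 FPKM. Serpinb9e, 1 of several close serpin copies, had 8.70 and 8.31 FPKM against 0.310 and 0.837 FPKM; WT also rose with a pseudocount of 0.1 (adjusted p = 0.0207) and without WT day 8 replicate 1 (0.03). Gpat3, an enzyme of triglyceride synthesis, had 9.46 and 7.04 FPKM against 2.56 and 3.45 FPKM.

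**Figure D4:**
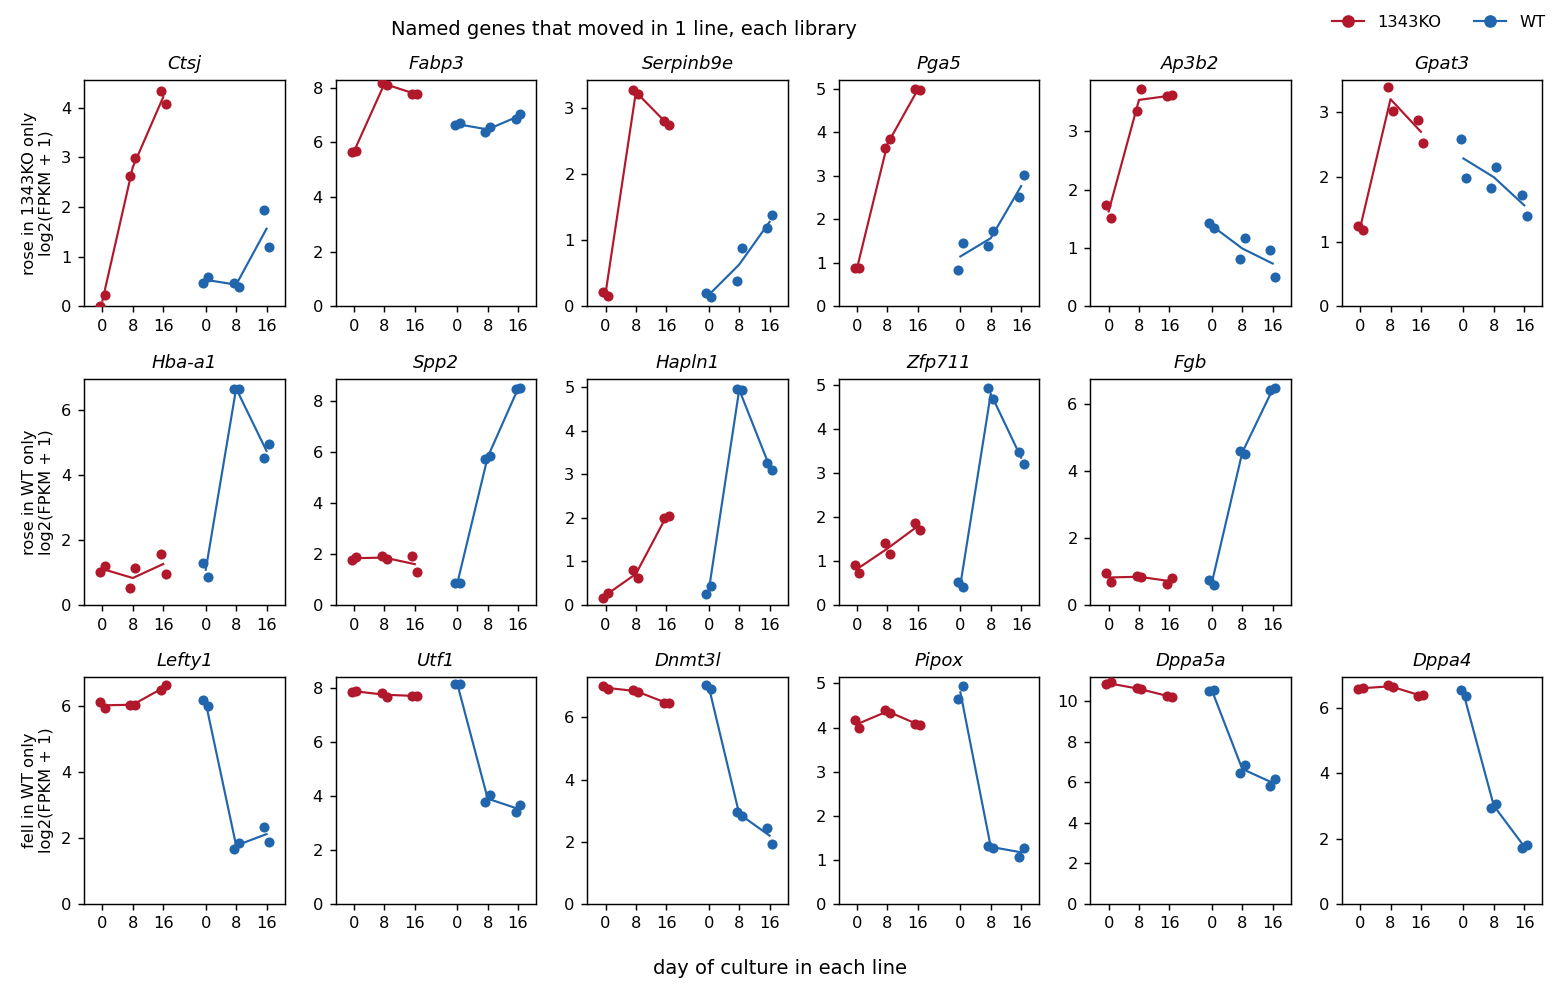
Level of each library as log2(FPKM + 1) at days 0, 8 and 16, for 6 genes that rose in the 1343KO line only (top), 5 that rose in WT only (middle) and 6 that fell in WT only (bottom) by the calls; points are libraries and lines join group means, 1343KO left of WT. Fabp3 went to 286 and 276 FPKM at day 8 in the 1343KO line against 83.0 and 92.8 FPKM in WT, and Lefty1 was at 64.9 and 65.1 FPKM in the 1343KO line against 2.20 and 2.63 FPKM in WT.

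Genes of the placenta were looked at further after Ctsj was seen. Tpbpa, a marker of the spongiotrophoblast, had 2.53 and 4.88 FPKM at day 8 in the 1343KO line and was listed at 0 in both of its day 0 libraries, against 0 and 0.442 FPKM at day 8 in WT and 0 in both of its day 0 libraries. The prolactin family genes Prl2b1 (4.89 and 3.41 FPKM at day 8 in the 1343KO line, 0 and 0.266 FPKM in WT) and Prl7d1 (3.37 and 1.97 FPKM, against 0 in both WT libraries) had the same pattern at low levels. Cdx2, a factor of early trophoblast that also marks posterior mesoderm, did the opposite, with 1.81 and 1.60 FPKM at day 8 in the 1343KO line against 12.8 and 16.2 FPKM in WT (interaction -2.71 ± 0.39). Over 16 trophoblast genes 6 were positive, 2 negative and 8 did not pass, and the summed level at day 8 was 301.9 and 271.4 FPKM in the 1343KO line and 223.7 and 234.8 FPKM in WT.

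Of the 86 genes that fell in the 1343KO line by the calls and not in WT, 6 were named for the size of their interaction. Phlda2, an imprinted gene that limits placental growth, had 46.5 and 26.4 FPKM at day 8 and 77.0 and 84.7 FPKM at day 0 in the 1343KO line, against 123 and 110.1 FPKM at day 8 and 87.1 and 115 FPKM at day 0 in WT (interaction -1.39 ± 0.35, limma adjusted p = 0.0167). Bcl6b, a repressor related to Bcl6, had 1.16 and 0.703 FPKM at day 8 in the 1343KO line against 4.13 and 5.38 FPKM in WT. The other 4 genes, Ripply3, Pllp, Akr1b8 and Xkr8, had interactions from -1.34 to -1.30. Each of the 6 lost its interaction call when some single library was left out, with adjusted p from 0.0507 for Pllp to 0.0915 for Xkr8.

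Signalling genes differed by pathway. Of 13 genes of BMP signalling and the Id family 10 had the lower change in the 1343KO line and 3 did not pass, with medians of 0.37 in the 1343KO line and 2.77 in WT. Id2 was at 24.9 and 26.9 FPKM at day 8 in the 1343KO line against 122 and 120.0 FPKM in WT, and Id3 at 23.3 and 26.6 FPKM against 76.8 and 82.9 FPKM. Both stayed level in the 1343KO line (-0.13 and 0.08, neither passing) from a day 0 level above that of WT, where Id1 fell. Of 11 genes of the Nodal pathway 7 were positive, 0 negative and 4 did not pass, and Lefty1, a feedback antagonist, was at 64.9 and 65.1 FPKM at day 8 in the 1343KO line against 2.20 and 2.63 FPKM in WT (interaction 4.35 ± 0.22). Of 15 FGF and ERK feedback genes 8 were positive, 1 negative and 6 did not pass, and of 13 Wnt genes 4 were positive, 4 negative and 5 did not pass.

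Of 22 glycolysis and hypoxia genes 21 rose and 1 fell in the 1343KO line, against 14 that rose and 4 that fell in WT. The interaction was positive in 13, negative in 5 and did not pass in 4. For all genes the shares were 15.0% rising in the 1343KO line, 26.8% rising in WT and 15.6% with a positive interaction. Pkm, the pyruvate kinase gene, had 1175 and 1108 FPKM at day 8 and 881 and 891 FPKM at day 0 in the 1343KO line, against 490.0 and 526 FPKM at day 8 and 924 and 922 FPKM at day 0 in WT. Pdk1, which turns pyruvate away from the mitochondria, and the enolase gene Eno1, which shares sequence with Eno1b, also moved in opposite directions. Ldhb, a lactate dehydrogenase gene outside that list and chosen after its values were seen (chromosome 6, 142490249 to 142507957), stood at 244 and 253 FPKM at day 8 and 34.0 and 34.2 FPKM at day 0 in the 1343KO line, against 17.1 and 17.3 FPKM at day 8 and 28.2 and 31.7 FPKM at day 0 in WT (interaction 3.60 ± 0.11, limma adjusted p = 5.25e-07).

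Of 17 cholesterol genes 13 had the lower change in the 1343KO line and 4 did not pass, with medians of 0.11 in the 1343KO line and 1.03 in WT. Sc5d, a late enzyme of the pathway, was at 10.0 and 7.08 FPKM at day 8 in the 1343KO line against 42.5 and 52.2 FPKM in WT. Dhcr7, another late enzyme, had 22.0 and 21.5 FPKM against 66.2 and 77.3 FPKM. Neither passed a change in the 1343KO line.

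Of 20 imprinted genes tested, 19 had the lower change in the 1343KO line and 1, Snrpn, the higher. In the 1343KO line 12 rose and 3 fell, against 18 that rose and 1 that fell in WT, with medians of 0.55 in the 1343KO line and 2.93 in WT. Igf2, a fetal growth factor, rose in both, to 369 and 393 FPKM in the 1343KO line and 1728 and 1759 FPKM in WT, after day 0 levels of 60.3 and 45.6 FPKM in the 1343KO line and 46.0 and 51.6 FPKM in WT. H19, the noncoding RNA next to it, came closer to WT, with 206 and 227 FPKM at day 8 in the 1343KO line against 460.0 and 449 FPKM in WT (interaction -1.12 ± 0.12). Meg3, the noncoding RNA that neighbours Rian, was level in the 1343KO line with 93.2 and 89.1 FPKM at day 8 and 90.1 and 89.6 FPKM at day 0, against 562 and 614 FPKM at day 8 and 71.6 and 77.7 FPKM at day 0 in WT. Grb10, an adaptor that damps insulin signals, fell to 39.1 and 37.3 FPKM in the 1343KO line and rose to 106 and 106 FPKM in WT.

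Of 35 ribosome biogenesis genes 35 fell in WT and 25 in the 1343KO line, with none rising in either, and 26 fell less in the 1343KO line. Their median change was -0.44 in the 1343KO line and -1.35 in WT. Ddx21, a nucleolar helicase, had 62.7 and 66.4 FPKM at day 8 in the 1343KO line against 24.5 and 25.6 FPKM in WT, where both lines had begun between 113 and 123 FPKM. Of 21 cell division genes 9 were positive, 1 was negative and 11 did not pass, and of 20 p53 targets 1 was positive, 7 negative and 12 did not pass. Of 8 DNA methylation enzymes 5 were positive, 1 negative and 2 did not pass; Dnmt3b, a de novo methyltransferase, was at 88.8 and 87.3 FPKM at day 8 in the 1343KO line against 19.6 and 19.4 FPKM in WT.

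The germ line list gave 10 positive, 0 negative and 3 not passing of 13, with medians of 0.57 in the 1343KO line and -1.57 in WT. Tex19.1, a factor that keeps transposons in check, was at 26.1 and 27.6 FPKM at day 8 in the 1343KO line against 3.05 and 2.40 FPKM in WT, and Dazl, an RNA-binding protein of germ cells, at 6.03 and 4.97 FPKM against 0.744 and 0.419 FPKM. Neither passed a change in the 1343KO line. Of 7 genes of the 2-cell-like state, 4 were negative, 0 positive and 3 did not pass. With a pseudocount of 0.1 none of the 4 passed. The limma adjusted p was then 0.158 for Zscan4b, 0.32 for Zscan4e, 0.425 for Gm8300 and 0.9 for Zscan4f. On this list the 1343KO line had started the higher. Its members summed to 3.435 and 1.466 FPKM at day 8 and 42.47 and 39.07 FPKM at day 0 in the 1343KO line. In WT they summed to 1.139 and 0.7216 FPKM at day 8 and 11.61 and 11.67 FPKM at day 0. Reads of the Zscan4 copies may be split among them.

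The share of all FPKM that came from mitochondrial genes in the 1343KO line was 9.08% and 10.2% (day 8) and 9.17% and 9.04% (day 0). In WT it was 9.52% and 8.69% (day 8) and 7.66% and 8.12% (day 0). The lists of endoderm, blood, endothelium and mesoderm moved with the time in WT as given above, and their part in the interactions of other genes was not tested. No list's median interaction changed sign under median-of-ratios or TPM scaling.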

How the data were processed

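The deposited values are FPKM per gene, computed by the authors; per the submitters' processing notes, Cufflinks 2.1.1 and the GRCm38 (mm10) genome were used. Aligner, annotation and strand setting: not given in the sources used here. Per the labels' protocols, libraries were made from poly(A) RNA and sequenced on an Illumina instrument. Reads of near-identical or overlapping genes are divided by estimate in FPKM. An exact 0 stood in some library for 17 of the 6620 genes whose median reached 10 FPKM, so a 0 is described as listed at 0. Starts in the table count from 0 and are given counted from 1. Depth was estimated from the steps of low values in transcripts of at least 1500 nt, assuming fragments of 200 nt.

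Genes that reached 1 FPKM in 2 or more libraries (16289 of 54537) were put on the log2 scale with a pseudocount of 1. A model with 1 mean for each of the 6 groups, over all 12 libraries, was fitted by limma 3.58.1 under R 4.3.3 (trend in the empirical Bayes variance, 6 residual degrees of freedom), with two-sided p-values adjusted by Benjamini-Hochberg within each contrast. The smallest p of an exact permutation test is 0.333 for 2 against 2 libraries and 0.0556 for the interaction, so calls rest on the spread pooled over genes and groups. Changes of the 2 lines share no library.

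The comparison, the 34 lists (546 entries, 541 in the table) and the tests were chosen with earlier results of these data known. Named were, in each of 6 patterns, the 6 genes with the largest interaction among those with no overlap between the lines' changes (unnamed models, pseudogenes and small RNAs left out, and the quiet line's 95% interval within 1 log2 unit of 0), 29 fixed markers, and up to 4 passing members of each list, 172 genes in all; 15 more were chosen after their values were seen. A few of these genes are not reported here. On simulated data for the interaction (16289 genes, 200 changed), the fit found 34% of those changed 2-fold and 77% of those changed 4-fold, and 6.72% of calls were false. In the data 4605 genes passed, far more than the 200 changed there, so these rates need not hold for the reported test. Alternatives were another pseudocount, filter, scaling, replicate block, robust fit, the 8 libraries alone, chromosomes 8 and Y left out, and each of the 8 libraries left out in turn. Promoters are from the RefSeq table. Tables came from Python 3.11.15 (pandas 2.3.3 and numpy 2.4.6), figures from matplotlib 3.10.9. Snora73 levels and other knockout lines were not analysed here.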

Additional observations from a re-analysis of the deposited data

Results flagged for a closer look

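Flagged were 11 of the opposite genes named for the size of their interaction, and other named opposite genes are given above. In these 11 each line's own change from day 0 to day 8 and the interaction passed (limma, adjusted p under 0.05). For those that fell in the 1343KO line and rose in WT the interaction on the log2(FPKM + 1) scale was -4.28 for Apoa2, -2.48 for Rian, -2.30 for Id1, -2.23 for Clmp and -2.00 for Zfp36l1. For those that rose in the 1343KO line and fell in WT it was 4.77 for Srgn, 3.86 for Tcl1, 3.78 for Lefty2, 3.77 for Calcoco2, 3.76 for Trh and 3.65 for Klf2. The difference itself was tested for each, as the interaction. The opposite call was lost in 11 of 17 alternatives for Tcl1, 7 for Calcoco2, 4 for Lefty2 and 3 for Rian.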

How the results depend on the processing

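Of the 187 named genes 180 passed the interaction, and 163 passed in all 17 alternatives; 123 of the 187 kept their pattern in every one. Of 3117 recomputed gene values 3038 kept direction and call, 71 lost the call, 1 gained it and 7 changed sign. The 7 were of genes whose interaction did not pass: 0.27 for Foxa2 and -0.63 for Snhg3 with a pseudocount of 0.1, -0.0068 for Snhg3 without 1343KO day 0 replicate 2, -0.18 for Pax6 without WT day 0 replicate 2, and 0.03, 0.40 and 0.09 for Gata6 without WT day 8 replicate 1, 1343KO day 0 replicate 2 and 1343KO day 8 replicate 1. With 1 library left out at a time the interaction lay between -0.66 and 0.40 for Gata6, -0.18 and 0.49 for Pax6, and -0.0068 and 1.35 for Snhg3. Sox17 passed (2.25, adjusted p = 0.00442) without 1343KO day 0 replicate 2.

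With a mean of at least 5 FPKM, which tests fewer genes, 1336 genes had the more negative change in the 1343KO line and 262 were 1343KO-only. With 1 library left out, the genes with the more positive change numbered 1982 to 2173, those with the more negative 1574 to 1770, opposite genes 140 to 179, WT-only 2042 to 2578, 1343KO-only 266 to 350 and those with both lines in 1 direction 730 to 968. Opposite genes were fewest without 1343KO day 8 replicate 1 (140) and 1343KO day 0 replicate 2 (143). Genes with both lines in 1 direction numbered 748 and 744 without 1343KO day 0 replicate 1 and 2, and 767 and 730 without 1343KO day 8 replicate 1 and 2. Fewer libraries give less power by construction.

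With the replicate number as a block, 2505 and 1996 genes passed in the 2 directions and 209 were opposite, 194 of them among the 223. The deviations of same-numbered libraries correlated at -0.0094 to 0.0341, so no shared effect of the replicate number was seen. This cannot show whether same-numbered samples were paired, and the labels do not say. Opposite genes numbered 205 with a pseudocount of 0.1, 179 with no filter, 193 on the 8 libraries alone and 214 without chromosomes 8 and Y. Of 1154 recomputed list counts 80 moved by over 1.5 times. Depth limits the genes near 1 FPKM.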

Other observations

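Simple epithelial genes were divided between the lines: of 16 tested, 5 had the more positive and 8 the more negative change in the 1343KO line, and 3 did not pass. The keratin genes Krt8 and Krt18 rose in both lines, Krt8 to 164 and 151 FPKM at day 8 in the 1343KO line and 239.6 and 253 FPKM in WT. The claudin gene Cldn3, of tight junctions, was at 18.7 and 18.3 FPKM at day 8 in the 1343KO line against 2.66 and 2.52 FPKM in WT, while Cldn7 went the other way, with 44.6 and 33.4 FPKM against 99.7 and 102 FPKM (interactions 1.85 ± 0.32 and -2.08 ± 0.24; SE, limma).

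Of 18 interferon and class I genes 14 did not pass, 3 had the more positive change in the 1343KO line and 1 the more negative. Among all genes tested 15.6% had the more positive change, so 3 of 18 lay near that share. The 3 were the membrane proteins Ifitm1, Ifitm2 and Ifitm3. Ifitm1 was at 475 and 433 FPKM at day 8 and 166 and 134 FPKM at day 0 in the 1343KO line, against 56.3 and 62.9 FPKM at day 8 and 65.5 and 61.7 FPKM at day 0 in WT. Of 10 neural genes 2 were positive, 2 negative and 6 did not pass, and Sox1 fell in both lines, to 1.36 and 0.995 FPKM at day 8 in the 1343KO line and 1.07 and 0.831 FPKM in WT. Of 11 basement membrane genes 3 were positive, 4 negative and 4 did not pass. Lama1, the laminin chain of early basement membranes, was at 9.83 and 9.82 FPKM at day 8 and 7.21 and 6.41 FPKM at day 0 in the 1343KO line, against 12.3 and 11.6 FPKM at day 8 and 32.5 and 30.6 FPKM at day 0 in WT. Its 1343KO rise ended without 1343KO day 0 replicate 2 (adjusted p = 0.0681) or day 8 replicate 2 (0.0506).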
